A study of Mus musculus with 12 samples.

Results

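The genes described here are those whose signal could be compared between groups labelled for Tbx3 in each of 2 pluripotent cell systems. The question is which genes moved in one direction in both and which moved in opposite directions. RNA from 12 samples was hybridised to 12 one-colour Agilent arrays, 1 sample per array. Mouse embryonic stem cells (mESC) contributed a Tbx3-low and a Tbx3-high group of 4 samples each, as the labels call them. Mouse induced pluripotent stem cells (iPSC), made by reprogramming of somatic cells, contributed a group labelled null for Tbx3 and a wild-type group of 2 samples each. The labels do not say how high and low cells were separated, the strain, the null allele or whether arrays stand for separate cultures or clones, so p-values measure only the spread between these samples, which may be technical. A gene was taken when a probe for it was well above the local background on every array of at least 1 mESC group and at least 1 iPSC group. This gave 15523 of the 17680 genes measurable in at least 1 system, and 14697 of them were above background on all 12 arrays.

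Each change below is a log2 difference between group means, Tbx3-high minus Tbx3-low in mESC and wild type minus null-labelled in iPSC, so that a positive value always means more signal in the samples labelled as having more Tbx3. Signals are log2 values relative to the 75th percentile of each array. The ± values are standard errors of the limma fit (n = 4 against 4 and 2 against 2). Rose, fell and changed refer to a Benjamini-Hochberg adjusted p from limma under 0.05. The contrast of contrasts is the mESC change minus the iPSC change. All mESC arrays lay on 1 slide and all iPSC arrays on another, so levels were never compared between the cell systems. Within each slide the groups also took different columns, so that slide column and group cannot be told apart.

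Tbx3 encodes a T-box transcription factor that belongs to the circuitry of naive pluripotency, the ground state of the early embryo's epiblast. It is also known for its link to primitive endoderm, the lineage specified by Gata6 that lays down the basement membrane of the early embryo. T-box proteins bind DNA through a conserved domain that recognises a short core sequence, GGTGTGA.

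The Tbx3 probe (chr5:120134511-120134570, mm9) gave log2 signals of 5.75, 5.76, 5.73 and 5.72 in the Tbx3-low and 7.05, 7.07, 7.12 and 7.03 in the Tbx3-high arrays. The mESC groups did not overlap, and Tbx3 rose by 1.33 ± 0.08 (adjusted p = 4.3e-07, limma). In iPSC the signal was 5.51 and 5.48 in the null-labelled and 4.996 and 5.35 in the wild-type arrays, so it was higher in the arrays labelled null. That change was -0.32 ± 0.11 (adjusted p = 0.039, limma), and its call was lost under 17 of 23 alternatives, among them leaving out wild-type replicate 1, which gave -0.15. The labels do not say which part of the gene the null allele lacks, so the probe does not check the label, and these samples are called null-labelled throughout.

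The pluripotent identity of both systems was checked on 12 general pluripotency genes. All 12 were well above background on every array, and their summed level, in units of the 75th percentile signal, ranged over 474 to 565 in Tbx3-low, 452 to 535 in Tbx3-high, 569.5 to 597 in null-labelled and 501 to 524 in wild-type arrays. Of the 12, 1 rose and 2 fell in mESC and 1 rose and 3 fell in iPSC. Over all genes 18.4% rose and 14.4% fell in mESC, and 16.1% rose and 22.9% fell in iPSC. Mycn fell in both systems (-0.998 in mESC and -1.50 in iPSC). Lin28a moved oppositely (0.29 in mESC, contrast of contrasts 1.04), a call lost under 7 of 22 alternatives. Zfp42 rose in mESC (0.46) and did not pass in iPSC. On their brightest probes Nanog, Sox2, Pou5f1 and Sall4 passed the test in neither comparison. The 2 other Nanog probes gave 0.41 and 0.41 in mESC, the 2 other Sall4 probes -0.77 and -1.06 in iPSC, and both genes left this class when their probes were averaged. Slide row as a block ended it for Sall4 and Pou5f1, and the replicate block for Sall4. The summed level of 16 fibroblast markers was 85.3 to 89.5 in Tbx3-low and 133 to 169 in Tbx3-high arrays, and 108.1 to 119.9 in null-labelled and 131 to 143 in wild-type arrays. Col5a2 and Postn were above background on no array. The summed level of 15 blood and endothelial markers was 9.96 to 11.1 in Tbx3-low, 12.1 to 14.02 in Tbx3-high, 21.1 to 21.2 in null-labelled and 17.8 to 18.8 in wild-type arrays, with Cdh5, Emcn, Spi1 and Lyz2 above background on none. This list holds Myo1f, described below, with log2 signals of 2.44 and 2.70 in null-labelled and -2.78 and -2.95 in wild-type arrays. The sums thus contain Myo1f's own change, and no sum without it was taken. Fewer spots were well above background in null-labelled (62.4% to 63.0%) than in wild-type iPSC (68.0% to 68.6%). The part of these shifts in the changes below was not tested.

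Over all genes tested in each system, 32.9% changed in mESC and 36.8% in iPSC. Of the 15523 genes measured in both, 5095 (32.8%) changed in mESC, 2856 upwards and 2239 downwards, and 6045 (38.9%) changed in iPSC, 2492 upwards and 3553 downwards. Genes that changed in both systems numbered 2713. Of these, 1923 (12.4% of all) moved together, 968 up (6.24%) and 955 down (6.15%). The other 790 (5.09%) moved oppositely, 447 up in Tbx3-high and down in wild-type iPSC (2.88%) and 343 the other way (2.21%). Of the genes that rose in Tbx3-high mESC, 33.9% also rose in wild-type iPSC and 15.7% fell there. Of those that fell in Tbx3-high mESC, 42.7% fell in wild-type iPSC and 15.3% rose. Seen from iPSC, 38.8% of the genes that rose in wild type also rose in Tbx3-high mESC, and 26.9% of those that fell also fell. The contrast of contrasts passed for 5593 genes (36%), and 7096 (45.7%) changed in neither system.

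The share of same-direction genes was higher among large changes. By sign alone, called or not, it was 55.3% of all 15523 genes. It was 70.9% of the 2713 genes changed in both, 80.4% of the 1202 with at least a 1.41-fold change in both, and 85.1% of the 295 with at least a 2-fold change in both. It was 83.0% of the 88 genes with at least 2.83-fold changes, and at 4-fold or more in both, 28 of 32 genes moved together. Over all 15523 genes, which are not independent and share the arrays, Pearson's r between the changes was 0.27 and Spearman's rho 0.24. Moving together did not mean moving equally: of the 1923 genes, 772 (40.1%) differed between the systems in the contrast of contrasts, and 659 of these (85.4%) had the larger change in iPSC. The ranges of the groups did not overlap for 5524 genes (35.6%) in mESC, 11287 (72.7%) in iPSC, where each group has 2 arrays, and 4365 (28.1%) in both.

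**Figure D1:**
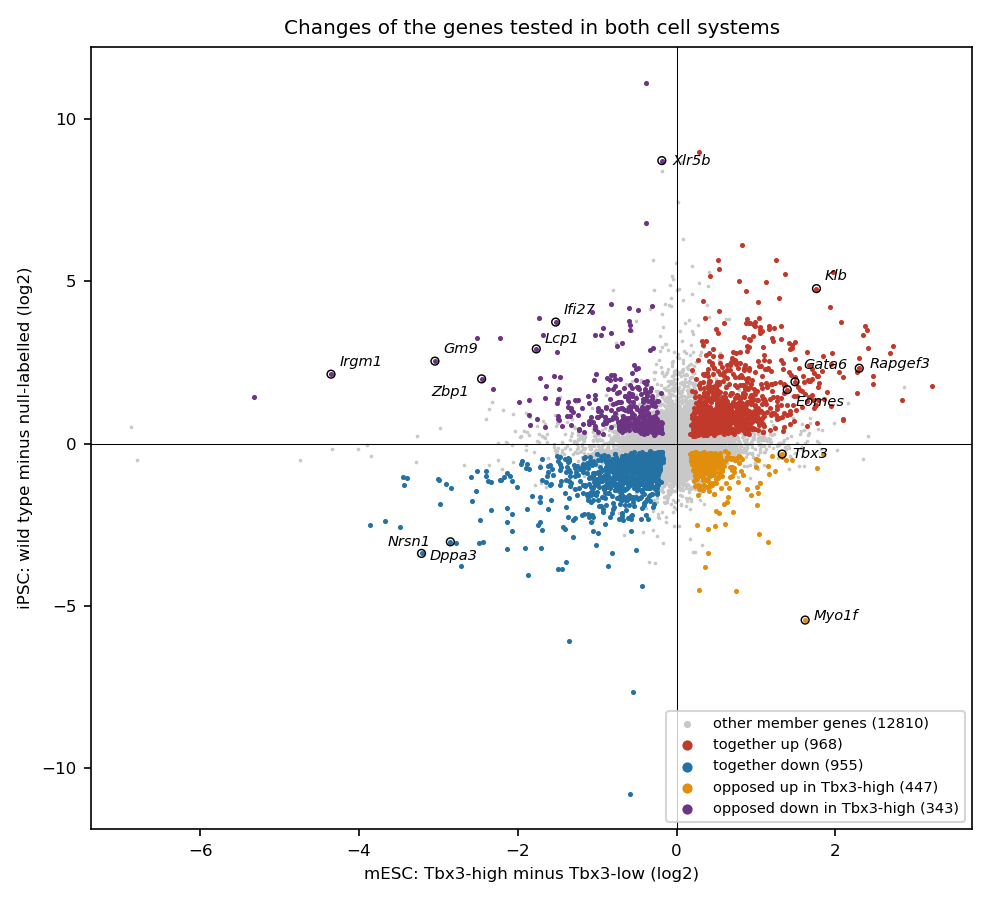
Each point is 1 of the 15523 genes, with the log2 change in mESC (Tbx3-high minus Tbx3-low) on the x axis and the log2 change in iPSC (wild type minus null-labelled) on the y axis. The 968 genes up in both lie at the upper right and the 955 down in both at the lower left, and the 447 and 343 opposed genes fill the other corners. Most of the circled genes are described in the text.

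The direction of the opposed genes depended on how the arrays were scaled. Taking the 75th percentile over probes above background on all arrays moved the median iPSC change from -0.09 to 0.02 and turned the opposed split from 447 up and 343 down in Tbx3-high to 333 and 489. Quantile normalization gave 349 and 422, and the deposited series values gave 315 and 429. Under these settings the share of upward calls in iPSC was 54.4%, 48.2% and 48.8%, against 41.2% in the main scaling, and the share of positive calls in the contrast of contrasts was 45.0%, 50.5% and 48.9%, against 60.4%. Leaving out null-labelled replicate 1 or wild-type replicate 1 left 257 and 278 genes opposed upwards in Tbx3-high, and 2242 and 2361 genes lower in wild-type iPSC.

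Among the genes that rose in both systems, Gata6, the master regulator of primitive endoderm, had log2 signals of -3.13, -2.89, -2.79 and -2.54 in Tbx3-low and -1.41, -1.54, -1.25 and -1.19 in Tbx3-high mESC. In iPSC its signals were -4.50 and -4.51 in null-labelled and -2.42 and -2.79 in wild-type arrays. Neither pair of groups overlapped, and Gata6 rose by 1.49 ± 0.13 in mESC and 1.90 ± 0.19 in iPSC (adjusted p = 9.8e-06 and 3.8e-05, limma). Eomes, a T-box factor of mesendoderm and trophoblast, had signals of -1.13, -1.14, -1.25 and -1.22 in Tbx3-low, 0.40, 0.41, 0.10 and -0.06 in Tbx3-high, -0.57 and -0.53 in null-labelled and 1.03 and 1.17 in wild-type arrays. It rose by 1.39 ± 0.10 and 1.66 ± 0.15 (adjusted p = 2.9e-06 and 1.8e-05, limma), with no overlap in either system. The contrast of contrasts passed for neither gene (adjusted p = 0.19 for Gata6 and 0.29 for Eomes, limma).

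Among the 8 strongest shared rises, ranked by the smaller of the 2 changes, Rapgef3, the cAMP-activated exchange factor EPAC1, had signals of 0.24, 0.11, -0.01 and 0.30 in Tbx3-low, 2.46, 2.52, 2.40 and 2.47 in Tbx3-high, -0.50 and -0.44 in null-labelled and 1.90 and 1.79 in wild-type arrays. Its rises of 2.30 ± 0.08 and 2.32 ± 0.11 differed by -0.02 ± 0.13. Mcc, a negative regulator of Wnt signalling, had signals of -1.10, -1.05, -0.99 and -1.08 in Tbx3-low, 1.12, 1.08, 1.29 and 1.38 in Tbx3-high, -0.43 and -0.15 in null-labelled and 1.92 and 1.91 in wild-type arrays. It rose by 2.27 in mESC and 2.20 in iPSC. Cpe, the carboxypeptidase that trims neuropeptide precursors, rose by 2.04 and 2.20, and the 2 other Cpe probes gave rises of 1.94 and 1.89 in mESC and 1.70 and 1.95 in iPSC.

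In the same class Dclk3, a doublecortin-like kinase, rose by 2.40 in mESC and 3.51 in iPSC. Slc13a5, the plasma membrane citrate transporter, rose by 2.37 in mESC and 3.62 in iPSC, Tac2, the neurokinin B precursor, by 2.07 in mESC and 3.73 in iPSC, and Robo4, a roundabout receptor of endothelium, by 1.96 in mESC and 2.78 in iPSC. For these 4 genes the contrast of contrasts passed, with adjusted p-values (limma) of 0.00014, 0.002, 0.0002 and 0.0015, and the rise was larger in iPSC. Ppp1r14d, an inhibitor of protein phosphatase 1, rose by 2.30 in mESC and 2.64 in iPSC, where the difference did not pass (adjusted p = 0.13, limma). Of the shared rises that were not above background on all arrays, Cd3d, a chain of the T cell receptor complex, rose by 1.97 in mESC, where 3 of 4 Tbx3-low arrays were above background, and 5.28 in iPSC. Spns3 rose by 2.34 in mESC and 3.35 in iPSC and Crtac1 by 1.94 in mESC and 2.46 in iPSC, and for both 1 of 2 null-labelled arrays was above background. With the other array set at its lowest signal above background, the Spns3 rise in iPSC was 2.99.

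The core GGTGTGA was looked for on both strands (as GGTGTGA or its complement TCACACC) in RefSeq promoter windows of GRCm38.p6, from 250 bases before to 50 after the transcription start. It occurred in 3.98% of all windows, and at least 1 window held it for 4.42% of the 11861 measured genes with a window, 5.92% of genes up in both, 5.53% of genes down in both, 3.67% of genes opposed upwards and 5.84% of genes opposed downwards in Tbx3-high. Of 105 named genes with a window, 5 held it. No binding was measured in these samples, and a match is a description of the letters only. To show what such a window looks like, the 250 bases before the start are given, 5′ to 3′ on the gene's strand with the match in capitals, for 1 gene up in both, 1 down in both and 1 opposed upwards in Tbx3-high.
Rapgef3 (chr15:97767667-97767916, minus strand, match starting at -55): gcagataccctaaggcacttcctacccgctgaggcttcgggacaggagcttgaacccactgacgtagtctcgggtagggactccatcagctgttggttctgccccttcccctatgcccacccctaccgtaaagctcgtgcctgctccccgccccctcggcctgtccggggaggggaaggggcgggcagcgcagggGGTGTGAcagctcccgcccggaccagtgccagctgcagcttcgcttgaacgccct
Ifi35 (chr11:101448162-101448411, plus strand, match starting at -194): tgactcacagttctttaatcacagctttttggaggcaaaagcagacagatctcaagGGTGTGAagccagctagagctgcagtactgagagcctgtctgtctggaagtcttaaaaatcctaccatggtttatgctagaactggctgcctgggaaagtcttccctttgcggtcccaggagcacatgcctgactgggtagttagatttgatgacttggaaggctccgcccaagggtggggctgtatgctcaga
Cul9 (chr17:46546389-46546638, minus strand, match starting at -90): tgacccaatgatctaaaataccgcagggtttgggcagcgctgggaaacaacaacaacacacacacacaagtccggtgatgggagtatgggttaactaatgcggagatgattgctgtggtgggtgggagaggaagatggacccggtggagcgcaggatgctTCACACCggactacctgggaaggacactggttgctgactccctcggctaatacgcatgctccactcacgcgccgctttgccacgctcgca
Rapgef3 and Ifi35 carry the core on the gene's own strand and Cul9 on the opposite strand. The windows of Eomes, Irgm1 and Myo1f do not hold these letters.

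The gene lists that follow are set against all 15523 genes, of which 18.4% rose and 14.4% fell in mESC, 16.1% rose and 22.9% fell in iPSC, 6.24% rose and 6.15% fell in both, and 5.09% were opposed; of the genes changed in both, 70.9% moved together. Of 17 primitive and visceral endoderm genes, 6 rose and 2 fell in mESC, and 9 rose and 3 fell in iPSC. Of the 17, 5 rose and 1 fell in both. The list's median change was 0.35 in mESC and 0.75 in iPSC, against 0.04 and -0.09 over all 15523 genes. It was smaller with normexp correction (0.14 in mESC and 0.28 in iPSC) and with the series table (0.15 and 0.42), with the same signs. Beside Gata6 the shared rises included Fst, the activin antagonist follistatin (1.26 in mESC and 1.32 in iPSC), and Pdgfra, the platelet-derived growth factor receptor of primitive endoderm. Pdgfra rose by 1.30 in mESC, where 1 of 4 Tbx3-low arrays was above background. In iPSC it was at least 2.21-fold higher in wild type, since it was not well above background on the null-labelled arrays, and the class of Pdgfra was lost with normexp background correction and with the series table. Rbp4, the retinol carrier, was the opposed member, at -0.47 in mESC and 1.68 in iPSC.

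Of 12 basement membrane genes, 9 rose and 2 fell in mESC and 6 rose and 1 fell in iPSC; 5 rose in both and 2 were opposed, close to the 70.9% of all genes, with a list median of 0.42 and 0.33. Nid1, which links laminin to collagen IV, had signals of 2.65, 2.72, 2.90 and 2.86 in Tbx3-low, 4.49, 4.49, 4.64 and 4.60 in Tbx3-high, 2.18 and 2.27 in null-labelled and 4.40 and 4.23 in wild-type arrays. No pair of groups overlapped, and Nid1 rose by 1.77 in mESC and 2.09 in iPSC. The collagen IV chains Col4a1 and Col4a2 rose by 1.86 in mESC and 1.38 in iPSC and by 1.75 in mESC and 1.18 in iPSC, while the laminin chain Lamb1 moved oppositely (-0.42 in mESC and 0.65 in iPSC). Sparc was opposed in the other direction (0.21 in mESC and -0.45 in iPSC), a call lost under 8 of 22 alternatives. Of 11 measured fibroblast markers 4 rose and 1 fell in mESC and 3 rose and 3 fell in iPSC, with medians of 0.30 and -0.07. Among them Col1a1 rose by 1.54 in mESC and 2.32 in iPSC and Pdgfrb by 1.83 in mESC and 2.22 in iPSC. Their log2 signals were at most 0.14 and -0.79, so brighter genes made up most of the summed fibroblast level given above. The part of that level in these rises was not tested. Tagln, an actin-binding protein of smooth muscle, fell in both (-1.36 in mESC and -0.56 in iPSC), a call lost with the replicate block and without null-labelled replicate 1 or either wild-type replicate. The intermediate filament gene Vim was opposed (0.27 in mESC and -0.37 in iPSC), a call lost under 9 of 22 alternatives.

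Naive pluripotency genes mark the ground state. Of 22, 14 rose and 3 fell in mESC, 7 rose and 4 fell in iPSC, 7 rose in both, 2 fell in both and 0 were opposed, against 18.4% and 14.4% of all genes in mESC, 16.1% and 22.9% in iPSC and 6.24%, 6.15% and 5.09% in both. In iPSC the split became 9 and 1 with quantile normalization and with the series table, and 9 and 2 with the other percentile. The median change was 0.48 in mESC and 0.09 in iPSC. Spp1, the secreted phosphoprotein osteopontin, rose by 0.997 in mESC and 0.86 in iPSC, and Pecam1, an adhesion molecule of naive cells, by 0.72 in mESC and 0.72 in iPSC. The other shared rises of the list, given after their values were seen, were those of Jam2, Klf5, Nr5a2, Socs3 and Stat3, from 0.21 to 1.64 in mESC and from 0.40 to 0.85 in iPSC. The 2 shared falls of the list included that of Dppa3 (-3.21 in mESC and -3.38 in iPSC), described below. Among 19 genes of FGF and ERK feedback 6 rose and 4 fell in both; Spry2, a feedback inhibitor, rose by 1.07 in mESC and 1.82 in iPSC and Dusp4, an ERK phosphatase, fell (-0.59 in mESC and -0.81 in iPSC). The median iPSC change of that list was -0.03 and turned positive, up to 0.08, under other scalings.

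Ranked by the smaller of the 2 changes, the largest shared fall among genes above background on all arrays was that of Dppa3 (chr6:122580207-122580266, mm9), also called Stella, a maternal and germ cell factor that protects DNA methylation in the early embryo. Its log2 signals were 2.83, 2.65, 2.89 and 2.84 in Tbx3-low and -0.45, -0.51, -0.19 and -0.48 in Tbx3-high mESC, and 3.34 and 3.20 in null-labelled and -0.13 and -0.10 in wild-type iPSC. The groups lay far apart in both systems. Dppa3 fell by 3.21 ± 0.09 in mESC, a 9.27-fold change, and by 3.38 ± 0.12 in iPSC, a 10.4-fold change (adjusted p = 3e-09 and 3.6e-08, limma). The contrast of contrasts was 0.17 ± 0.15 (adjusted p = 0.41, limma), with a sign that turned under quantile normalization, to -0.14.

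Nrsn1, a neuronal vesicle membrane protein, showed the same picture. Its signals were 0.43, 0.46, 0.57 and 0.64 in Tbx3-low, -2.33, -2.35, -2.26 and -2.36 in Tbx3-high, 0.22 and 0.14 in null-labelled and -2.84 and -2.84 in wild-type arrays. Neither pair of groups overlapped, and it fell by 2.85 ± 0.07 in mESC and by 3.03 ± 0.09 in iPSC (contrast of contrasts 0.18 ± 0.11, adjusted p = 0.25, limma). Insm1, a zinc finger factor of neuroendocrine cells, changed by -2.48 in mESC and -3.05 in iPSC. Cthrc1, a secreted collagen triple helix protein, changed by -2.44 in mESC and -3.02 in iPSC, and Cxcl10, a chemokine induced by interferon, by -2.47 in mESC and -2.34 in iPSC. None of these 3 passed the contrast of contrasts (adjusted p = 0.07, 0.15 and 0.71, limma).

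Fndc3c1, an X-linked fibronectin domain gene, fell more in mESC than in iPSC (-3.68 in mESC and -2.38 in iPSC; contrast of contrasts adjusted p = 9.7e-05, limma), as did the unannotated transcripts 2610037D02Rik (-3.87 in mESC and -2.52 in iPSC) and Gm9564 (-3.48 in mESC and -2.58 in iPSC). With normexp correction the difference between the systems did not pass for these transcripts, nor did it for Gm9564 with the series table or without replicate 1 of either iPSC group. Of the shared falls not above background everywhere, Slc23a1, the vitamin C transporter, changed by -2.72 in mESC and -3.76 in iPSC. Zp1, an egg coat protein, fell by 1.69 in mESC and was at least 2.02-fold lower in wild-type iPSC, where it was not well above background. Slc5a5, the iodide transporter, fell by 1.08 in mESC and was at least 1.76-fold lower in wild-type iPSC, and its shared call was lost with the series table.

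**Figure D2:**
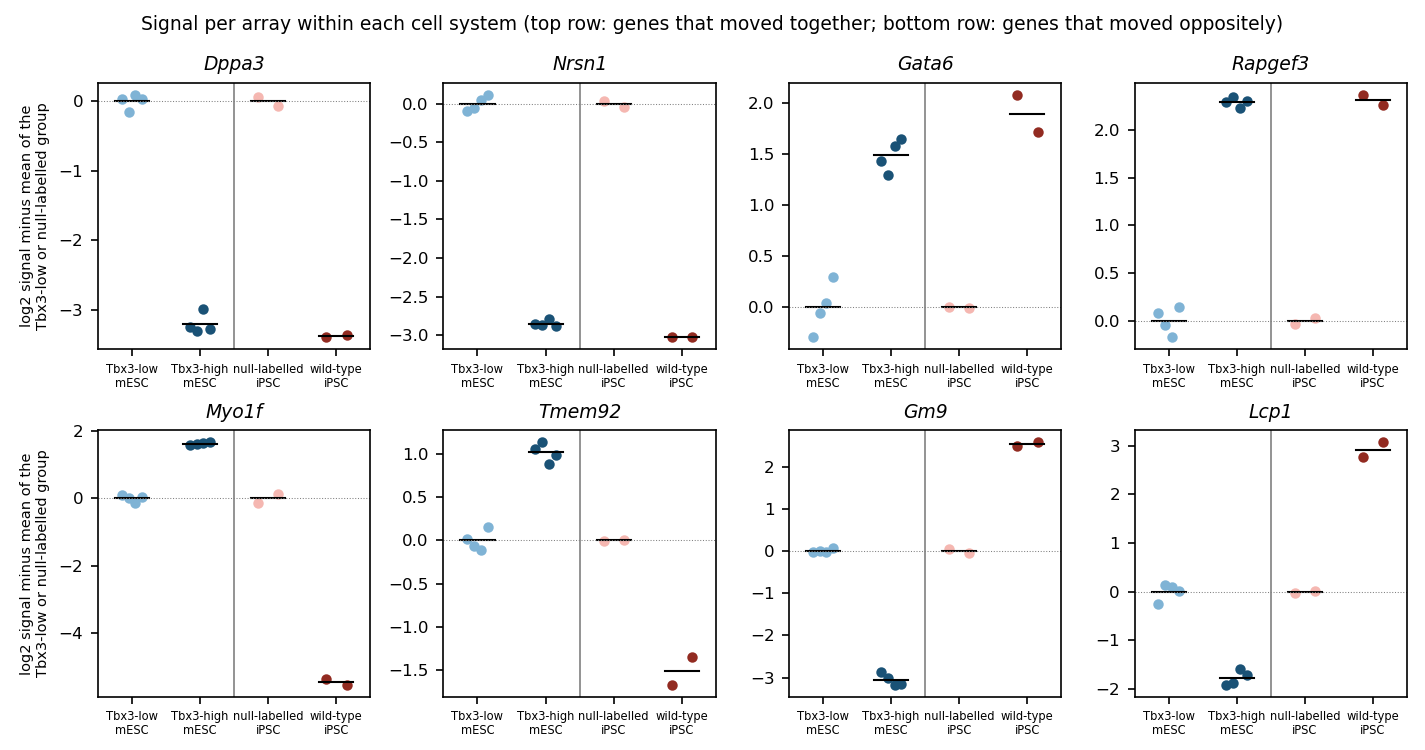
Each point is 1 array, with the log2 signal minus the mean of the Tbx3-low group (mESC, left of the vertical line) or of the null-labelled group (iPSC, right of it) on the y axis and bars at group means; axes differ between genes. In the top row Dppa3 and Nrsn1 fall and Gata6 and Rapgef3 rise in both systems, and in the bottom row Myo1f and Tmem92 rise in Tbx3-high and fall in wild-type iPSC while Gm9 and Lcp1 do the reverse.

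Genes of the formative and primed epiblast, the state that follows the naive one, had more falls than rises in either system. Of 20, 6 rose and 11 fell in mESC, 3 rose and 8 fell in iPSC, and 6 fell in both, with medians of -0.35 and -0.38. Over all genes 18.4% rose and 14.4% fell in mESC, 16.1% rose and 22.9% fell in iPSC, and 6.15% fell in both. Pim2, a survival kinase, changed by -1.47 in mESC and -1.29 in iPSC, and Zic2, a zinc finger factor of the epiblast, by -1.15 in mESC and -1.27 in iPSC, a class lost with normexp background correction. Etv4, an ETS factor induced by FGF signalling, was the member that rose in both (1.13 in mESC and 1.21 in iPSC). Tcf15, a helix-loop-helix factor of the exit from naive pluripotency, was opposed (0.49 in mESC and -1.09 in iPSC), as was Lef1, a nuclear effector of Wnt signalling, in the other direction (-1.10 in mESC and 0.61 in iPSC). The Lef1 class was lost without null-labelled replicate 2 or wild-type replicate 1.

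Of 25 imprinted genes, expressed from 1 parental copy, 4 rose and 8 fell in mESC and 4 rose and 11 fell in iPSC; 2 rose and 6 fell in both. The growth-restricting genes Cdkn1c and Phlda2 changed by -1.13 in mESC and -1.54 in iPSC and by -1.06 in mESC and -2.69 in iPSC. Plagl1, a zinc finger regulator of the imprinted network, rose by 1.202 in mESC and 1.83 in iPSC. The median was -0.06 in mESC and -0.51 in iPSC. Of 18 germ cell and meiosis genes, 1 rose and 12 fell in mESC while 7 rose and 4 fell in iPSC. The X-linked homeobox genes Rhox6 and Rhox9 fell in both (-3.45 in mESC and -1.04 in iPSC, and -3.40 in mESC and -1.05 in iPSC), with the larger fall in mESC.

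X-linked genes made up 3.74% of the measured genes with a chromosome. They were 9.44% of genes down in both (90 of 953) and 11.1% of genes opposed downwards in Tbx3-high (38 of 342), but 2.28% of genes up in both and 1.57% of genes opposed upwards. These shares are a description, without a test.

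By the same ranking, the largest opposed change upwards in Tbx3-high mESC was that of Myo1f (chr17:33744604-33744663, mm9), a class I myosin of blood cells. Its signals were -0.96, -1.05, -1.21 and -1.01 in Tbx3-low and 0.51, 0.55, 0.59 and 0.60 in Tbx3-high mESC, against 2.44 and 2.70 in null-labelled and -2.78 and -2.95 in wild-type iPSC. It was thus high in the Tbx3-high mESC and in the null-labelled iPSC, with no overlap in either system. The changes of 1.62 ± 0.08 and -5.44 ± 0.12 differed by 7.05 ± 0.14 (adjusted p = 9.3e-11, limma), and a second probe gave 1.53 and -5.05. Myo1f is itself 1 of 15 blood and endothelial markers. Of these, 9 to 11 were above background on all arrays of a group, and Spi1, Lyz2, Cdh5 and Emcn on none. Of the 10 measured, 3 rose and 1 fell in mESC, against 18.4% and 14.4% of all genes. In iPSC 3 rose and 3 fell, against 16.1% and 22.9%. Runx1 (0.88 in mESC and 1.06 in iPSC) and Laptm5 (0.92 and 0.50) rose in both. The Laptm5 class was lost under 3 of 22 alternatives. Cd34 was opposed the other way (-0.76 in mESC and 0.79 in iPSC). Over all genes 6.24% rose in both and 5.09% were opposed. The part of these markers was not tested.

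Islr2, a neuronal membrane protein with leucine-rich repeats, had signals of -0.10, -0.05, -0.17 and -0.07 in Tbx3-low, 0.91, 0.98, 0.90 and 0.90 in Tbx3-high, 1.77 and 1.46 in null-labelled and -0.59 and 0.03 in wild-type arrays. Tmem92, a transmembrane protein listed with the two-cell-like state, a rare subpopulation with genes of the early cleavage embryo, had signals of -1.75, -1.83, -1.88 and -1.61, -0.71, -0.63, -0.88 and -0.77, 0.66 and 0.66 and -1.01 and -0.70 in the same order of groups. Both genes were higher in Tbx3-high and lower in wild-type arrays without overlap, by 1.02 in mESC and -1.90 in iPSC and by 1.02 in mESC and -1.51 in iPSC. Itga9, an integrin alpha chain, changed by 1.16 in mESC and -0.93 in iPSC, and Fgf1, a fibroblast growth factor, by 1.24 in mESC and -0.83 in iPSC. Abi3, an actin regulator of the WAVE complex, changed by 1.05 in mESC and -1.21 in iPSC, but its call was lost without null-labelled replicate 1.

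Cul9, a cytoplasmic cullin, changed by 1.04 in mESC and -2.78 in iPSC on its brighter probe, while its second probe gave -0.22 and -0.20, so that the 2 probes disagreed and the class was lost when they were averaged. Lrfn3, a synaptic adhesion protein, changed by 1.01 in mESC and -1.33 in iPSC with overlapping mESC groups, and lost its class without replicate 1 of either iPSC group. Of the genes not above background everywhere, Adcy1, an adenylate cyclase, rose by 1.15 in mESC, with 3 of 4 Tbx3-low arrays above background, and was at least 2.15-fold lower in wild-type iPSC. Cd200r2 rose by 0.89 in mESC, where 1 of 4 Tbx3-low arrays was above background; with the others set at their lowest signal above background where theirs was lower, the rise was 0.64. It was at least 2.38-fold lower in wild-type iPSC, but 3 of 21 alternatives ended its class. Fam131c changed by 0.94 in mESC, where 2 of 4 Tbx3-low arrays were above background, and -1.58 in iPSC.

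Genes lower in Tbx3-high mESC and higher in wild-type iPSC were the more numerous class among large changes: 37 of the 44 opposed genes with at least 2-fold changes in both systems. Gm9, an X-linked gene, had signals of 0.17, 0.19, 0.17 and 0.27 in Tbx3-low, -2.66, -2.81, -2.96 and -2.95 in Tbx3-high, -3.72 and -3.81 in null-labelled and -1.27 and -1.19 in wild-type arrays. It was high in Tbx3-low mESC and in wild-type iPSC with no overlap, and changed by -3.04 ± 0.08 and 2.54 ± 0.11 (contrast of contrasts -5.58 ± 0.13, adjusted p = 4.5e-10, limma). Lcp1, the actin-bundling protein L-plastin of blood cells, had signals of -2.88, -2.48, -2.52 and -2.61, -4.53, -4.51, -4.20 and -4.33, -1.87 and -1.82 and 0.91 and 1.22 in the same order. It changed by -1.77 ± 0.11 and 2.91 ± 0.16 (contrast of contrasts -4.68 ± 0.19, adjusted p = 4e-08, limma), again without overlap. Mgst2, a microsomal glutathione transferase, changed by -1.48 in mESC and 1.67 in iPSC, and Siglecf, a sialic acid receptor of eosinophils, by -1.54 in mESC and 2.07 in iPSC.

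Several members of this class are known interferon-induced genes, while Cxcl10, also induced by interferon, fell in both systems as given above. Irgm1 (chr11:48679069-48679128, mm9), an immunity-related GTPase, had signals of -0.23, -0.16, 0.17 and 0.04 in Tbx3-low and -4.26, -4.80, -3.85 and -4.68 in Tbx3-high mESC, where 3 of 4 arrays were above background, and of -4.31 and -4.26 in null-labelled and -2.25 and -2.05 in wild-type iPSC. It changed by -4.35 ± 0.19 and 2.13 ± 0.27 (contrast of contrasts -6.49 ± 0.32, adjusted p = 1.3e-07, limma), and its second probe gave -3.99 and 2.32. Zbp1, a sensor of Z-form nucleic acid, had signals of -0.30, -0.17, 0.02 and 0.001 in Tbx3-low, -2.76, -2.73, -2.29 and -2.49 in Tbx3-high, -2.26 and -2.21 in null-labelled and -0.08 and -0.40 in wild-type arrays, and the groups did not overlap in either system. It changed by -2.46 in mESC and 1.99 in iPSC, Nmi, a partner of STAT proteins, by -2.31 in mESC and 1.69 in iPSC, and Ifi27 by -1.52 in mESC and 3.74 in iPSC.

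Of the 19 measured genes of the interferon-inducible list, 2 rose and 12 fell in mESC, against 18.4% and 14.4% of all genes, and 6 rose and 3 fell in iPSC, against 16.1% and 22.9%. The median change was -1.01 in mESC and 0.27 in iPSC. Across the list 4 genes were opposed downwards in Tbx3-high, 2 rose in both and 2 fell in both. Irf1, a transcription factor of the interferon response, changed by -1.76 in mESC and 0.75 in iPSC. Gbp3, a guanylate-binding protein, was at least 9.29-fold lower in Tbx3-high mESC, where it was above background on no array, and at least 1.26-fold higher in wild-type iPSC, with its class lost under normexp correction and the series table. Xaf1, an antagonist of apoptosis inhibitors, rose in both (1.79 in mESC and 1.85 in iPSC), whereas Bst2, the tetherin that holds virions at the cell surface, and Ifi35 fell in both (-0.54 in mESC and -1.93 in iPSC, and -1.09 in mESC and -0.41 in iPSC). The Ifi35 class was lost without null-labelled replicate 1 or either wild-type replicate.

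Antigen presentation genes mostly fell in mESC and rose in iPSC. Of 11, 1 rose and 6 fell in mESC and 6 rose and 0 fell in iPSC; 3 were opposed and 0 moved together. Over all genes 18.4% rose and 14.4% fell in mESC, 16.1% rose and 22.9% fell in iPSC, and 5.09% were opposed. The 3 opposed genes are the peptide transporter subunits Tap1 (-0.73 in mESC and 0.67 in iPSC) and Tap2 (-0.59 in mESC and 1.08 in iPSC) and the immunoproteasome subunit Psmb9 (-0.56 in mESC and 1.52 in iPSC), and Tap1 lost its class under normexp correction. The list medians were -0.54 and 0.54, and they kept their signs under each of the 5 scalings compared, between -0.58 and -0.41 in mESC and between 0.33 and 0.65 in iPSC.

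**Figure D3:**
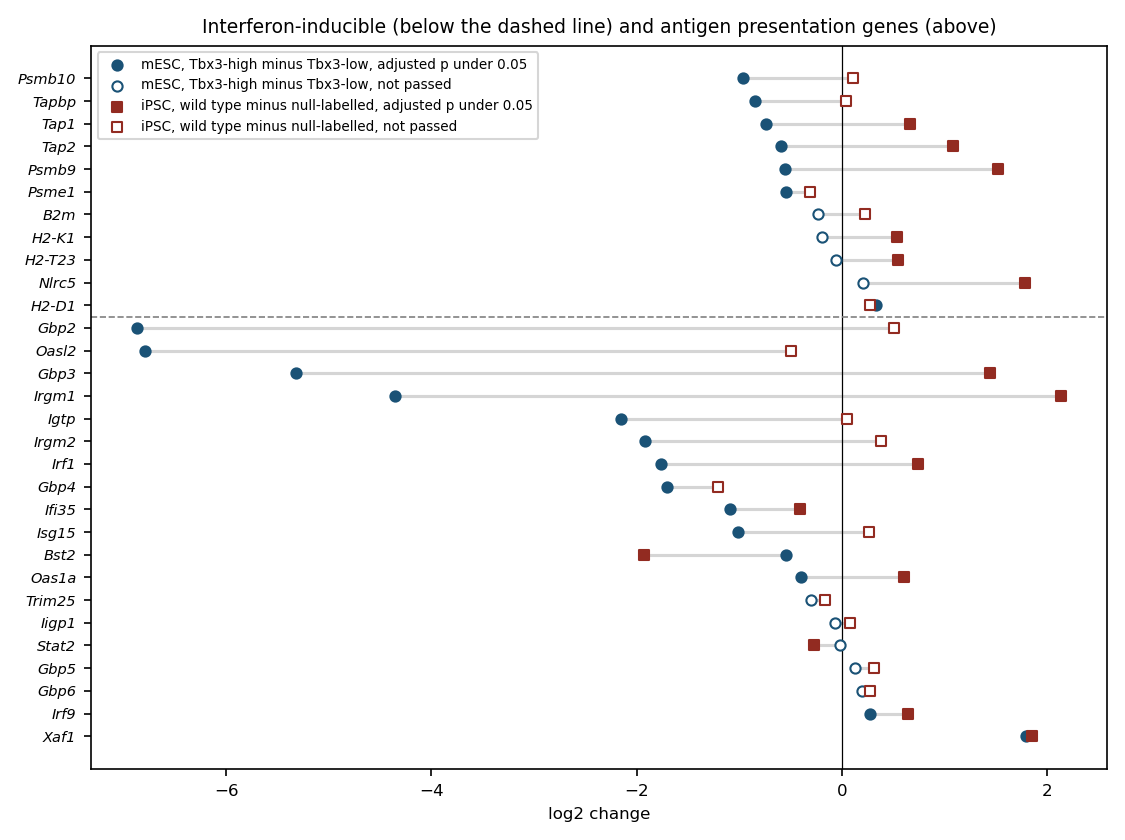
The x axis is the log2 change and each row a gene, with mESC changes (Tbx3-high minus Tbx3-low) as circles and iPSC changes (wild type minus null-labelled) as squares, filled where the adjusted p from limma was under 0.05. Most filled circles lie left of 0 (12 of 14 interferon-inducible and 6 of 7 antigen presentation genes), and most filled squares lie right of it (6 of 9 and 6 of 6); differences of genes below background on a group's arrays are measured means, not bounds.

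Meiotic and X-linked families contributed further opposed genes. Sycp1, a core protein of the synaptonemal complex, changed by -0.95 in mESC and 3.35 in iPSC, Tex101, a germ cell surface protein, by -0.60 in mESC and 4.18 in iPSC, and Stra8, the gatekeeper of meiosis, by -0.31 in mESC and 1.37 in iPSC. Tex101 lost its class under 4 of 22 alternatives, among them leaving out Tbx3-low replicate 3 or 4 or Tbx3-high replicate 3, and Stra8 with the replicate numbers as a block. All 7 measured genes of the Xlr family, an X-linked cluster of near-identical copies whose probes may share signal, rose in wild-type iPSC, with a median change of 6.28. In mESC 0 of these 7 rose and 3 fell, with a median of -0.19. Xlr5b had signals of 2.83, 2.87, 2.94 and 2.95 in Tbx3-low, 2.73, 2.71, 2.70 and 2.70 in Tbx3-high, -5.54 and -5.75 in null-labelled and 3.09 and 3.04 in wild-type arrays. It was at least 352-fold higher in wild-type iPSC, not being above background in null-labelled cells, while its mESC change of -0.19 lost its call under 14 of 22 alternatives.

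Of 12 genes of Nodal signalling, 4 rose and 5 fell in mESC, against 18.4% and 14.4% of all genes, and 3 rose and 4 fell in iPSC, against 16.1% and 22.9%. The iPSC split turned to 5 up and 2 down with quantile normalization, the other percentile and the series table. Lefty1, a secreted Nodal inhibitor, had signals of 3.53, 3.62, 3.82 and 3.68 in Tbx3-low, 0.63, 0.58, 0.70 and 0.72 in Tbx3-high, 4.24 and 3.86 in null-labelled and 3.25 and 2.67 in wild-type arrays and was lower without overlap in the samples with the higher Tbx3 label in both systems (-3.003 in mESC and -1.09 in iPSC). Its neighbour Lefty2 was opposed (-1.18 in mESC and 0.61 in iPSC). The inhibitory Smad7 rose in both (0.82 in mESC and 0.71 in iPSC), and lost its class without null-labelled replicate 2 or wild-type replicate 1.

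Wnt and BMP targets were mixed. Of 14 Wnt targets 3 rose in both, 2 fell in both and 2 were opposed. Cdx1, a caudal homeobox gene, rose by 2.84 in mESC and 1.34 in iPSC, Wnt8a changed by -1.88 in mESC and -2.01 in iPSC, and Rnf43, a receptor-degrading ligase, was opposed (-0.32 in mESC and 1.72 in iPSC), with its class lost under 5 of 22 alternatives. Of 11 BMP and Id targets, 6 rose and 1 fell in mESC and 3 rose and 2 fell in iPSC. Id1 rose in both (0.82 in mESC and 1.004 in iPSC), Id2 fell in both (-1.64 in mESC and -1.18 in iPSC), and Id4, a related inhibitor of helix-loop-helix factors, was opposed (0.77 in mESC and -1.18 in iPSC). The median iPSC change of this list, 0.03, turned negative, to -0.04, under another scaling.

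Of 13 trophectoderm genes 2 rose and 4 fell in both and 1 was opposed, and of 11 neuroectoderm genes 1 rose and 3 fell in both and 1 was opposed, where 70.9% of all genes changed in both moved together. In trophectoderm Tfap2a rose (1.10 in mESC and 2.56 in iPSC), Gata3 and Esx1 fell (-1.57 in mESC and -0.78 in iPSC, and -0.99 in mESC and -0.88 in iPSC), and the keratin Krt7 was opposed (-0.73 in mESC and 1.29 in iPSC). Esx1 lost its class without wild-type replicate 2. In neuroectoderm Nefm, a neurofilament subunit, rose by 0.83 in mESC and was at least 67.3-fold higher in wild-type iPSC, whereas Ina, another intermediate filament of neurons, fell in both (-1.39 in mESC and -3.66 in iPSC).

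Of 28 oxidative phosphorylation genes, 5 rose and 1 fell in mESC and 0 rose and 11 fell in iPSC, with medians of 0.15 and -0.27. The 11 falls were 6 with normexp correction, 5 with the other percentile, and 2 with quantile normalization and with the series table. The iPSC median of that list stayed negative under the other scalings but moved to -0.05 in one of them. Of 25 cell cycle genes 3 fell in both, among them Ccne1, the G1 cyclin E1 (-0.67 in mESC and -0.71 in iPSC). Of 8 two-cell-like genes, 6 fell in iPSC and 1 in mESC, with medians of -1.12 and -0.06; Gm4340 fell in both (-0.55 in mESC and -1.65 in iPSC). Of 17 DNA methylation genes 3 fell in both, including the methyltransferase Dnmt3b (-0.35 in mESC and -1.13 in iPSC) and Mbd3 (-0.33 in mESC and -0.58 in iPSC), while the cofactor Dnmt3l was opposed (0.35 in mESC and -1.08 in iPSC). Among 10 T-box genes other than Tbx3 itself Eomes was the member that changed in both, and among 20 p53 targets 1 rose in both, 1 fell in both and 1 was opposed, each a call lost under some alternatives.

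**Figure D4:**
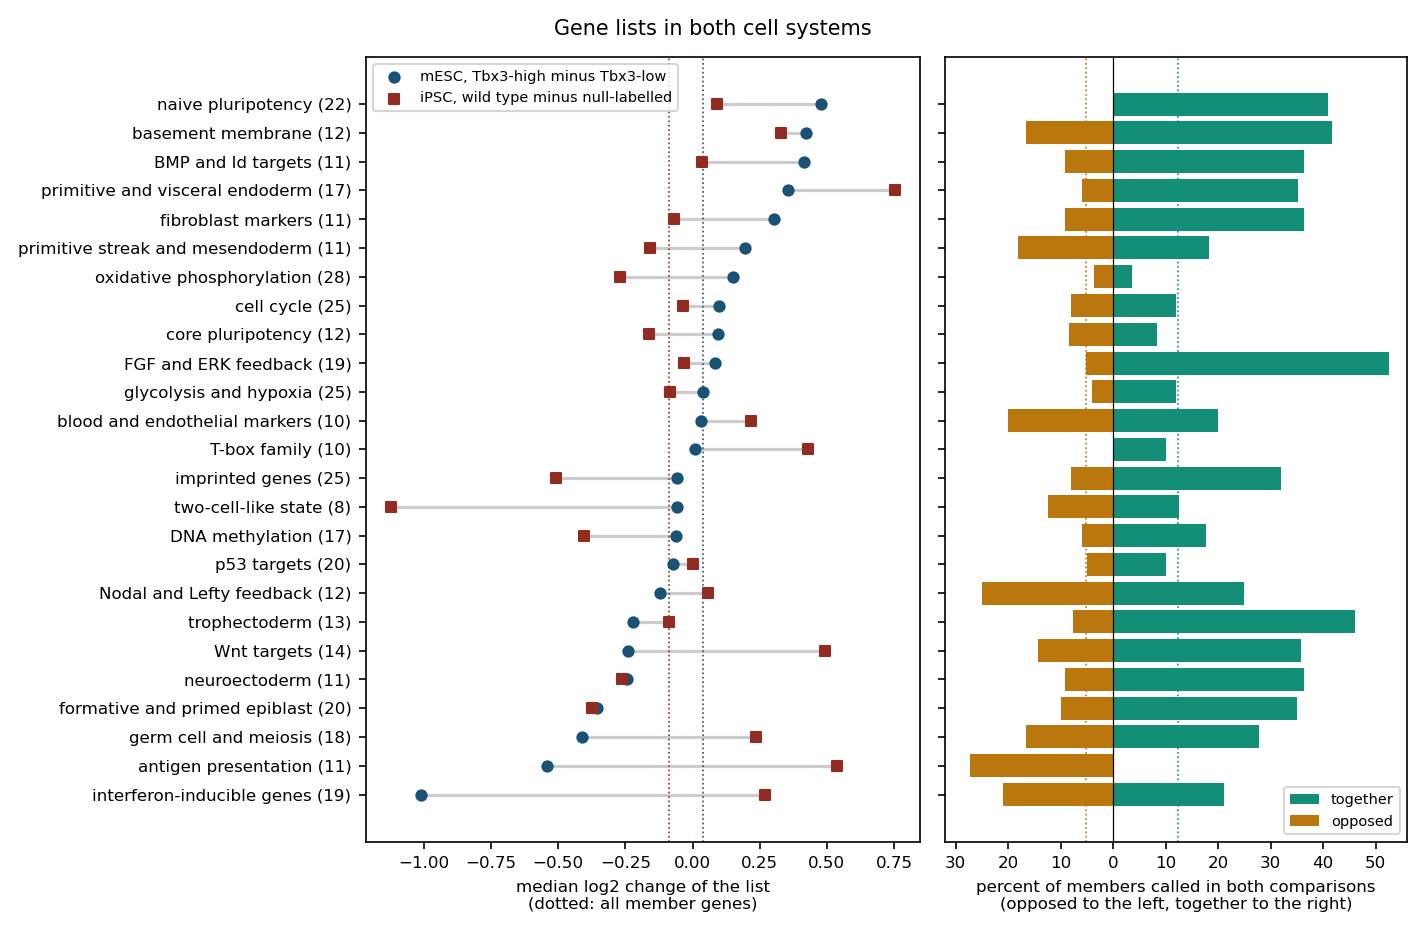
The left panel plots the median log2 change of each of 25 gene lists in mESC (circles) and iPSC (squares), with the medians of all genes dotted, and the right panel the percent of each list's measured genes (number in brackets) that changed in both systems, opposed to the left and together to the right, with the shares of all genes dotted. Naive pluripotency and basement membrane lie right of both dotted lines, interferon-inducible and antigen presentation genes lie left in mESC and right in iPSC, and the Xlr family, with an iPSC median of 6.28, is not drawn.

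Genes that changed in 1 system and also differed in the contrast of contrasts numbered 1155 for mESC (7.44%) and 2515 for iPSC (16.2%). In mESC alone Enpp2, the enzyme autotaxin that makes lysophosphatidic acid, had signals of 0.42, 0.50, 0.64 and 0.44 in Tbx3-low and -3.52, -4.07, -3.92 and -3.85 in Tbx3-high arrays, a change of -4.34, and its iPSC signals of -4.42 and -4.32 and -4.76 and -4.34 overlapped (-0.18, adjusted p = 0.48, limma). Lgals9, a galectin, changed by -3.28 in mESC and 0.24 in iPSC, Slc40a1, the iron exporter ferroportin, by -3.85 and -0.38, and Fhl2, a LIM domain protein, by -2.98 and 0.48. Upwards in mESC, Gm13889 changed by 2.41 and 0.24 and 2310065F04Rik by 2.01 and -0.20. The iPSC values in these pairs did not pass the test. Slc40a1 left the class with normexp background correction and with the series table, Gm13889 with the percentile over probes above background on all arrays, and Fhl2 without null-labelled replicate 1.

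In iPSC alone Xlr4b had signals of -3.47 and -3.02 in null-labelled and 3.12 and 2.96 in wild-type arrays, a change of 6.28, with an mESC difference of 0.08 that did not pass (adjusted p = 0.57, limma). Akr1e1, an aldo-keto reductase, changed by 5.46 in iPSC and 0.19 in mESC, and Baiap2l1, an adaptor of membrane curvature, by 5.06 and -0.05. Aass, the first enzyme of lysine breakdown, went the other way, with signals of 4.16 and 4.11 in null-labelled and 0.82 and 0.08 in wild-type arrays (-3.69 in iPSC and -0.27 in mESC). Pramel20, of a gene family expressed in germ cells, changed by -3.35 in iPSC and 0.20 in mESC. Rab17, a small GTPase of epithelial trafficking, changed by -3.11 on its brighter probe and by -1.14 on its other probe in iPSC, and by 0.32 in mESC. None of these mESC values passed the test. The class was lost for Rab17 with the replicate block, with slide row as a block, and without Tbx3-low replicate 2 or Tbx3-high replicate 4, for Pramel20 without Tbx3-low replicate 4, and for Akr1e1 with slide row as a block.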

How the data were processed

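Total RNA of 12 mouse samples was hybridised to as many one-colour arrays (55681 probes). The processed intensity of each spot, background-subtracted and spatially detrended but unscaled between arrays, was made with Feature Extraction 10.7.3.1, per the file headers, which place the probes on mm9. Unscaled mean and background intensity columns, per the file headers, entered only the normexp correction. The authors also deposited a series table of log2 values whose scaling, background treatment and centring stay unknown. Its columns correlated with each array's log2 mean signal at 0.9989 or more, with medians of 6.58 to 6.61, and it served as an alternative only.

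From the intensity, log2 minus each array's 75th percentile over non-control probes was computed, spots the scanner software marked as outliers were left out, and spots of 1 probe were averaged. The brightest probe on average stood for its gene, probes above background in both comparisons first. RefSeq tables (GRCm38.p6) named 27741 probes by accession, 3347 by symbol and 300 by synonym on the same chromosome, 1326 kept the file's name and 22967 had none. A fold written "at least" sets each array of a group without signal well above background at that array's lowest such signal, or at the probe's own signal where that was higher. A mean per group was fitted to all 12 arrays in limma 3.58.1 (R 4.3.3), with 8 residual degrees of freedom and Benjamini-Hochberg adjustment over the genes of each comparison; 15686 genes were tested in mESC (5166 called, 32.9%) and 17517 in iPSC (6453 called, 36.8%). The fit was tested on simulated data. Summaries and figures used Python 3.11.15, pandas 2.3.3 and matplotlib 3.10.9.

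Named genes are the markers, the 8 genes per class with the largest smaller change among those above background on all 12 arrays, up to 3 per class among the others, the genes changed in 1 system with the largest contrast of contrasts, and the largest members of each class in each of 26 gene lists. A gene that met these rules is not reported here. The genes, the lists and the tests were chosen with earlier results of these data known. Same-numbered Tbx3-low and Tbx3-high arrays deviated together from their group means (correlations of 0.17, 0.30, 0.22 and 0.12). Tbx3-low 1 correlated best with Tbx3-high 2 (0.41), however, and Tbx3-low 4 with Tbx3-high 3 (0.31). In both mESC groups replicates 1 and 2 lay in slide row 1 and replicates 3 and 4 in row 2. Correlations were positive within a row (0.04 to 0.41) and negative between rows (-0.40 to -0.07). Same-numbered arrays share a row, so their correlations do not separate pairing by number from slide row. In iPSC, with 2 arrays per group, deviations from the group mean mirror each other. The correlations of 0.06 and -0.06 are therefore 1 value, which cannot test the pairing. The pairing comes from the replicate numbers in the labels alone. The fits with these numbers as a replicate block and with slide row as a block are alternatives. With slide row as a block 5867 genes changed in mESC, 2224 moved together and 975 oppositely.

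The 75th percentile signal was 314 to 458 on mESC and 699.8 to 1007 on iPSC arrays, no array had saturated spots, and the number of arrays limits the precision. Replicates correlated at 0.994 or more. Alternatives were other background correction, scaling, filters, probe rules, blocks, weights, thresholds, and each array left out in turn.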

Additional observations from a re-analysis of the deposited data

Results flagged for a closer look

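Of 308 pairs of a named gene and an mESC group, 14 (4.55%) had 1 array far from the other 3, where chance gives about 1 in 20. As log2 signals against the range of the others, these were Bax in Tbx3-high replicate 4 (4.74 against 4.93 to 4.97), Gbp3 in Tbx3-high replicate 1 (-7.40 against -6.96 to -6.89), Islr2 in Tbx3-high replicate 2 (0.98 against 0.90 to 0.91), Lefty2 in Tbx3-high replicate 2 (2.08 against 2.27 to 2.29), Stra8 in Tbx3-high replicate 1 (1.43 against 1.59 to 1.62), Tagln in Tbx3-high replicate 4 (0.94 against 0.56 to 0.61) and Tap2 in Tbx3-high replicate 4 (-0.25 against -0.17 to -0.16) among Tbx3-high arrays. Among Tbx3-low arrays they were Bax in Tbx3-low replicate 3 (4.81 against 4.41 to 4.47), Dclk3 in Tbx3-low replicate 4 (-3.0 against -3.17 to -3.15), Siglecf in Tbx3-low replicate 2 (-0.60 against -0.33 to -0.29), Slc13a5 in Tbx3-low replicate 4 (-1.59 against -2.11 to -2.07), Sycp1 in Tbx3-low replicate 3 (2.06 against 1.47 to 1.57), Tfap2a in Tbx3-low replicate 2 (-3.60 against -2.85 to -2.73) and Vegfa in Tbx3-low replicate 4 (2.34 against 2.21 to 2.23).

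The changes in the 2 cell systems differed in the contrast of contrasts (mESC change minus iPSC change, log2, adjusted p from limma under 0.05) for the following genes. Opposed upwards in Tbx3-high mESC were Abi3 (2.26), Adcy1 (4.17), Bax (0.93), Cd200r2 (2.29), Cdkn1b (0.84), Cox5a (0.61), Cul9 (3.82), Dnmt3l (1.42), Fam131c (2.52), Fgf1 (2.07), Fgf17 (1.69), Gnas (0.82), Id4 (1.95), Islr2 (2.92), Itga9 (2.09), Lin28a (1.04), Lrfn3 (2.34), Myo1f (7.05), Nodal (0.60), Slc2a3 (0.92), Sox1 (1.72), Sparc (0.67), Tbx3 (1.65), Tcf15 (1.58), Tmem92 (2.53) and Vim (0.65). Opposed downwards were 2410012E07Rik (-5.04), Cd34 (-1.56), Cdkn2b (-1.36), Evx1 (-3.72), Gbp3 (-6.77), Gm9 (-5.58), Ifi27 (-5.26), Igf2r (-0.62), Irf1 (-2.51), Irgm1 (-6.49), Krt7 (-2.02), Lamb1 (-1.06), Lcp1 (-4.68), Lef1 (-1.71), Lefty2 (-1.79), Mgst2 (-3.15), Nmi (-4.00), Psmb9 (-2.08), Rbp4 (-2.15), Rnf43 (-2.05), Siglecf (-3.61), Slc15a2 (-5.11), Stra8 (-1.69), Sycp1 (-4.31), Tap1 (-1.40), Tap2 (-1.68), Tex101 (-4.77), Ush1c (-5.13), Xlr3a (-4.54), Xlr5a (-7.17), Xlr5b (-8.90) and Zbp1 (-4.44).

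Several of these opposed classes were not stable. The class was lost under 16 of 22 alternatives for Tbx3, 15 for Igf2r, 11 each for Bax and Cdkn1b, 9 for Vim, 8 for Sparc, 7 each for Cox5a, Nodal and Lin28a, 6 for Cdkn2b, 5 for Rnf43, 4 each for Sox1 and Tex101 and 3 for Slc2a3, and under 14 of 21 for Xlr5b, 8 of 21 for Xlr5a and 3 of 21 for Cd200r2. Another scaling or the series table ended it for Tbx3, Bax, Cdkn1b, Cox5a, Nodal, Vim, Slc2a3, Lin28a, Cd200r2 and Gbp3, and normexp correction for Cox5a, Igf2r, Xlr5b, Cd200r2, Gbp3 and Tap1. A second probe gave 0.53 in mESC and 0.14 in iPSC for Sox1 and -0.11 and -1.20 for Gnas, and both classes, with those of Cul9 and Cdkn2b, were lost when probes were averaged.

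For genes below background in a group these differences are measured means and not bounds. Changed in mESC alone were 2310065F04Rik (2.21), D630033O11Rik (2.22), Enpp2 (-4.16), Fhl2 (-3.46), Gm13889 (2.18), Lgals9 (-3.51), Slc40a1 (-3.47) and Stac3 (2.24). D630033O11Rik lost this class under 11 of 22 alternatives. The mESC groups of Stac3 overlapped, with Tbx3-low signals up to -1.02 and Tbx3-high signals down to -1.23. Changed in iPSC alone were Aass (3.42), Akr1e1 (-5.27), Baiap2l1 (-5.11), Crygc (3.56), Gm5936 (-5.20), Pramel20 (3.55), Rab17 (3.44) and Xlr4b (-6.21). The cause of these differences was not tested.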

How the results depend on the processing

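The correlation of the 2 changes moved from 0.27 to 0.282 with normexp correction, to 0.273 with quantile normalization, to 0.281 with the series table, to 0.190 with no background filter, to 0.290 with genes above background in all 4 groups and to 0.278 without X-linked genes, an alternative chosen after seeing the data. Fitting each cell system alone called 3965 genes in iPSC, 1933 upwards and 2032 downwards. Among genes called in both, 215 were then opposed upwards and 262 downwards in Tbx3-high, without a test of the difference. That iPSC fit takes the spread from the iPSC arrays alone and has fewer degrees of freedom, and the cause of the lower count was not tested. At an adjusted p of 0.01, 1117 genes moved together and 306 oppositely; at 2-fold in both, 251 and 44. With no background filter 493 genes moved oppositely, and the cause was not tested. With the replicate block, 5001 genes changed in mESC, 5497 in iPSC and 5315 in the contrast of contrasts, 1794 moved together and 675 oppositely; none of these counts moved by over 1.5 times. Leaving out 1 array in turn gave 4346 to 5087 genes in mESC, 4284 to 5929 in iPSC, 4174 to 5358 in the contrast of contrasts, 1549 to 1764 together, 545 to 691 opposed, 1010 to 1120 changed in mESC alone and 1684 to 2596 in iPSC alone with a difference, and a correlation of 0.249 to 0.275. Sign changes occurred in differences that had not passed: Nanog in iPSC was 0.061 with quantile normalization and 0.091 with the series table, Sox2 in iPSC 0.016 with the series table, and Zfp42 in iPSC 0.019 and 0.022. The contrast of contrasts of Dppa3 was -0.14 with quantile normalization, and those of Slc5a5 and Zp1, which had passed, were -0.25 and -0.28 with the series table. The cause of these changes was not tested. Of the verdicts on single named genes, 8832 kept direction and side of the threshold, 340 lost the call, 9 gained it and 8 changed sign. Signal over background limits genes near it. Their folds written "at least" are bounds, and their other changes are measured means.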

Other observations

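Of 9267 probes without a gene name measured in both comparisons, 289 (3.12%) rose in both, 215 (2.32%) fell in both, 91 (0.982%) were opposed upwards and 88 (0.95%) opposed downwards in Tbx3-high.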
